A study of Mus musculus with 8 samples.

Results

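Cholesterol and fatty acids are built from the same acetyl-CoA, and the genes of both routes were examined in mouse leukemia cells that carry MLL-AF9, a fusion gene that causes acute myeloid leukemia (AML) when it is introduced into bone marrow progenitors. The genes were chosen by name: 41 genes that encode the enzymes of sterol synthesis, the enzymes of fatty acid synthesis and modification, and the regulators and transporters of both. Of these, 40 were found among the 12823 rows of the table of read counts, and all 40 were among the 12494 that passed the filter on low counts. Scd1 is not analysed here. The 40 genes comprised 18 sterol synthesis enzymes, 12 fatty acid genes, and 10 regulators and transporters that were kept apart because they serve both routes or act after synthesis.

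RNA was taken from leukemia cells in 2 groups of 4 libraries each. The new AML libraries came from cells that were newly generated by transduction of mouse bone marrow progenitors with a retrovirus carrying MLL-AF9 and GFP and that had caused AML in sublethally irradiated recipients about 2 months after transplantation. The aggressive AML libraries came from cells described as derived from that leukemia by 5 serial transplantations into recipients that had not been irradiated, so both groups carried MLL-AF9 and GFP. Hosts were C57BL/6 mice aged 8 to 12 weeks, and the study describes the mice of both groups as male. Leukemia cells were sorted from their bone marrow by GFP, with the same number of cells per library. The labels number the libraries as biological replicates and do not name the mouse behind each, so p-values measure the spread between these samples of leukemia cells, and not that between independently made leukemias.

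The libraries held 7805544 to 9697777 counts. Genes listed as markers of myeloid leukemia cells were found in every library (8 of 8 in the table, Mpo, Elane, Ctsg, Kit and Cd34 among them). They do not set leukemia cells apart from normal myeloid cells. Their summed level was 5832 to 6524 CPM (read counts scaled by the total of the library) in new AML and 5707 to 7832 CPM in aggressive AML. Of these 8, Kit (1.57-fold), Elane (1.44-fold) and Ctsg (1.42-fold) were higher in aggressive AML, and Itgam (1.53-fold) and Spi1 (1.19-fold) were lower. Of 10 neutrophil markers, 8 were lower in aggressive AML. Over all genes tested, 8.15% were higher and 10.2% lower. The sum of the 10 neutrophil markers was 326.3 to 493.9 CPM in new AML against 166.2 to 218.7 CPM in aggressive AML. All 5 tested macrophage markers had fold changes below 0 and 1 was called, Adgre1, which was 1.77-fold lower in aggressive AML. Their sums (6 of 10 markers in the table) were 227.1 to 281.8 CPM in new AML and 174.1 to 241.1 CPM in aggressive AML. All 7 tested erythroid markers were below 0 as well, with Hba-a1 and Slc4a1 called lower, and sums of 27.3 to 101.2 CPM and 10.01 to 53.6 CPM. Retnlg, Mmp9, Mrc1, Alas2 and Slc4a1 met the filter of 1 CPM in 4 libraries through new AML alone. Not every aggressive AML library reached that level, so their lower values are not independent of the filter. Only 2 of 9 T, B and NK cell markers were in the table, with sums of at most 3.23 CPM. Pecam1 was the only gene of 8 fat and stromal markers, at 341.5 to 405.7 CPM in new AML and 308.9 to 341.3 CPM in aggressive AML. In RNA of sorted cell populations, fewer cells of a type and less RNA per cell cannot be told apart. Nor can either be told apart from a change of these markers within the leukemia cells themselves. The part of other cells in the results below was not tested. A group of 4 Y-linked genes summed to 2315 to 2574 counts in each new AML library and to 0 in each aggressive AML library, and a change that came with the passages cannot be told apart from the use of other cells. The mice of both groups are described as male, and the part of host cells in these counts was not tested. Sequencing batches are not recorded in the labels, and a batch that follows the group cannot be told apart from it.

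Sterol synthesis is controlled by the level of its own product. SREBP proteins, encoded by Srebf1 and Srebf2, are carried by the escort protein Scap from the endoplasmic reticulum to the Golgi when membrane sterol is low, are cut there, and enter the nucleus to activate genes of sterol and fatty acid synthesis. The anchors Insig1 and Insig2 hold Scap back when sterol is plentiful, and Insig1 is itself an SREBP target. The sterol-sensing nuclear receptors LXR (Nr1h2 and Nr1h3) act in the other direction and induce the cholesterol exporters Abca1 and Abcg1, and also Srebf1. Proliferating leukemia cells use both routes to make membranes.

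The stretches of DNA before annotated starts are shown for the 4 genes of sterol synthesis and its control that passed the test (Hsd17b7, Lss, Insig1 and Insig2), and for the 2 genes in whose window the core of a sterol regulatory element, the site that SREBP binds, was found (Hmgcs1 and Acsl1). Each is the 250 bases before an annotated transcription start in RefSeq (GRCm38.p6), written 5′ to 3′ on the strand of the gene, with the letters of CCAAT (read on either strand) and of TCACNCCAC (read on either strand) in capitals. For Insig2 the window of the first of its listed starts is given, and the windows of its other listed starts did not hold CCAAT. For Acsl1 the window is that of an inner start. The starts used for Hsd17b7, Lss and Insig2 also lie inside the RefSeq spans of these genes, so part of each window overlaps the gene. The windows are chr1:169969206-169969455 (minus strand) for Hsd17b7, chr10:76531355-76531604 (plus) for Lss, chr5:28071162-28071411 (plus) for Insig1, chr1:121332590-121332839 (minus) for Insig2, chr13:119690101-119690350 (plus) for Hmgcs1 and chr8:46490716-46490965 (plus) for Acsl1.
Hsd17b7: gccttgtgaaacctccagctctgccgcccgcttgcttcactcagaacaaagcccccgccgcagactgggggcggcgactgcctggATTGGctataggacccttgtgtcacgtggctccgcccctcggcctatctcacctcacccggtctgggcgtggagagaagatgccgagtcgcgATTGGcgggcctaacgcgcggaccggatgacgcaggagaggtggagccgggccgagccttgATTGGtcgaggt
Lss: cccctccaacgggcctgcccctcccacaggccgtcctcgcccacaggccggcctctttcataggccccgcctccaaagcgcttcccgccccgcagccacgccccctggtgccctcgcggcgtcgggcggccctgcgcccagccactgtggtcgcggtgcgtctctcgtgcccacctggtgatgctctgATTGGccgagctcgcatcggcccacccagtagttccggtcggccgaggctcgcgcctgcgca
Insig1: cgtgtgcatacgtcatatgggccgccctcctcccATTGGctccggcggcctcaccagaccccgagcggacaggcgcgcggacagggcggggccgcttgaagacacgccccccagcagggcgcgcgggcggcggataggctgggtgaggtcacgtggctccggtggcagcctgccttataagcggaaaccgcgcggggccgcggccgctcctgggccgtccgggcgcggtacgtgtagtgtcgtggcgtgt
Insig2: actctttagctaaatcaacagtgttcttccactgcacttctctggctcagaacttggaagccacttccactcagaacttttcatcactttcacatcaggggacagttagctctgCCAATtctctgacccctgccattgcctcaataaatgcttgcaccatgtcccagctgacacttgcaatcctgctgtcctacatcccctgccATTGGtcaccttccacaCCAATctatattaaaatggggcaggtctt
Hmgcs1: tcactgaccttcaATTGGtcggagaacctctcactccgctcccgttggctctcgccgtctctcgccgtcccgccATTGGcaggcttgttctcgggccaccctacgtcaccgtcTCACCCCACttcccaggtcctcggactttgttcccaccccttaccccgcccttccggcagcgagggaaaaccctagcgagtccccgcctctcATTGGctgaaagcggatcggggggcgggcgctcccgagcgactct
Acsl1: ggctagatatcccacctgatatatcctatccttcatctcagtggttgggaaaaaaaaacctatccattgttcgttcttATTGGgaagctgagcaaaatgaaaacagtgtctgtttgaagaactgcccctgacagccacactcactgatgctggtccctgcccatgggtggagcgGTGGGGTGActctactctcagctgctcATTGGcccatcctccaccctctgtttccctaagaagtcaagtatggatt

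CCAAT, the letters that the factor NF-Y reads beside SREBP at many sterol genes, stood in the windows of 14 of the 15 sterol synthesis genes that the promoter table covers (93.3%), counting any listed start of a gene. It stood in 6 of 10 fatty acid genes (60.0%) and in 4 of 8 regulators and transporters (50.0%), against 41.1% of 9952 genes of the count table and 37.5% of 27025 genes of the genome. Hsd17b7 held it at 3 places, 165, 73 and 12 bases before the start, the last of them inside the span of the gene. Lss held it at 1 place, 62 bases before the start. TCACNCCAC was found at Hmgcs1, 137 bases before the start, and at the inner start of Acsl1, 76 bases before it. It thus stood in 1 of 15 sterol synthesis genes, 1 of 10 fatty acid genes and 0 of 8 regulators and transporters. Its share in the genes of the count table was 1.22%. Only these exact letters were searched, so other forms of the site were not counted. These counts describe letters in a window of this length, and 33 of the 40 genes were covered, with 44 windows.

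The comparison asked how the 40 genes changed from new to aggressive AML. In the edgeR quasi-likelihood test, with Benjamini-Hochberg adjustment over all 12494 genes, 5 of the 40 passed an adjusted p of 0.05 (12.5%), against 18.4% of all genes tested. Hsd17b7 and Lss of sterol synthesis, the SREBP anchor Insig1 and the acyl-CoA synthetase Acsl1 were higher in aggressive AML (4 of 40, against 8.15% of all genes), and the other anchor, Insig2, was lower (1 of 40, against 10.2% of all genes). New and aggressive AML values stood fully apart for 8 of the 40 genes, against 21.8% of all genes. Pooled over both directions, the share called among these genes was below that over all genes, and no test was made of that difference. The count of 5 fell to 3 without new AML replicate 2 or either of aggressive AML replicates 1 and 2, and was 8 with DESeq2. An unadjusted p under 0.05 was found for 12 of the 40, and for 4070 of all 12494 genes.

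**Figure D1:**
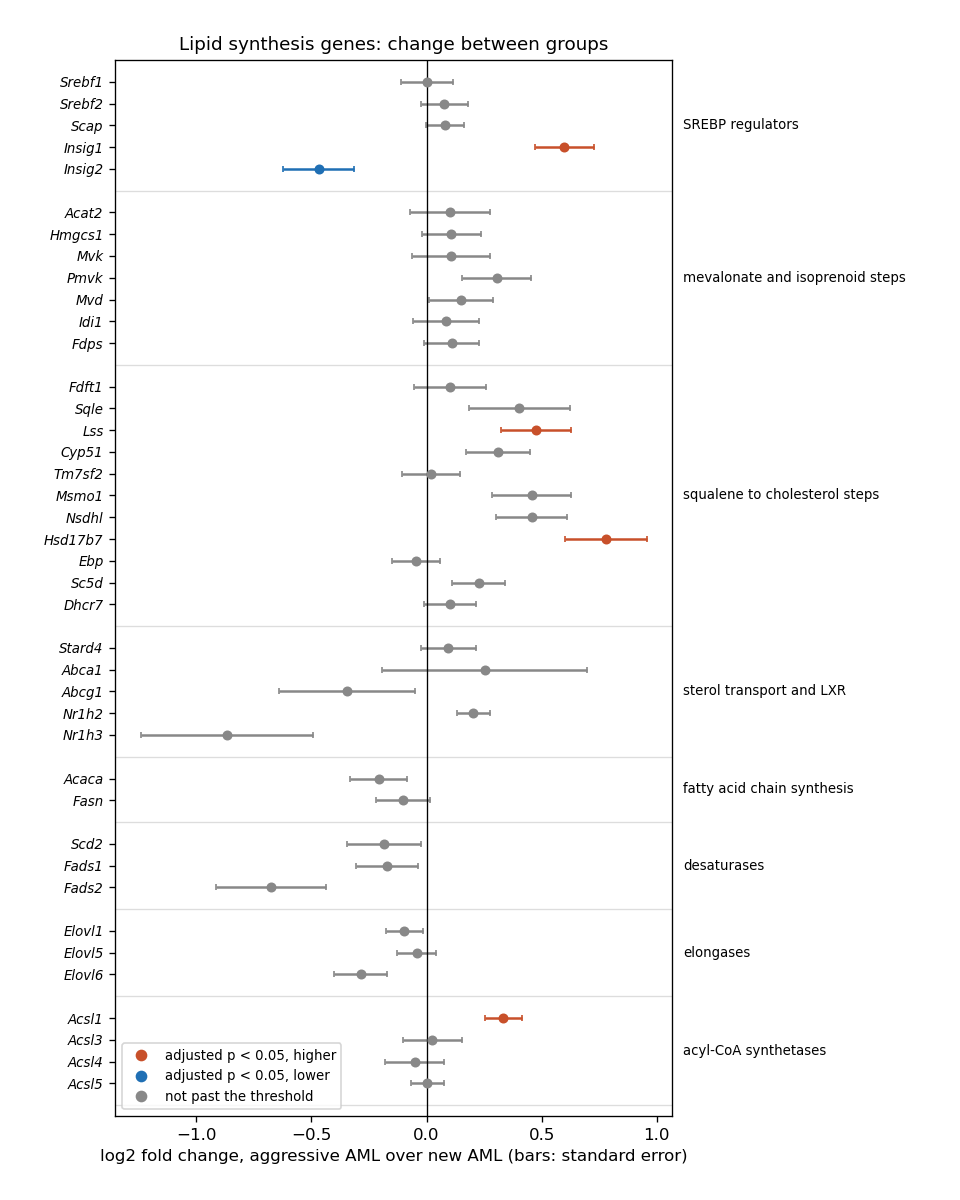
Log2 fold change of each of the 40 genes (x axis, aggressive AML over new AML, bars are the standard error of the edgeR fit), ordered by role. Coloured points passed an adjusted p of 0.05, and 17 of the 18 sterol synthesis enzymes lie to the right of 0 and 9 of the 12 fatty acid genes to the left.

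Among the regulators, the anchors that hold SREBP in the endoplasmic reticulum moved in opposite directions while SREBP and its escort did not pass the test. Insig1 (chromosome 5, 28071412 to 28078662, GRCm38.p6, plus strand) was at 37.1, 34.5, 45.6 and 33.7 CPM in the new AML libraries and at 62.8, 53.5, 65.8 and 46.4 CPM in the aggressive AML libraries. Every aggressive AML library lay above every new AML library, by a narrow gap between new AML replicate 3 and aggressive AML replicate 4. The means were 37.7 ± 5.47 and 57.1 ± 8.85 CPM (SD, n = 4), a 1.51-fold rise (log2 fold change 0.60, SE 0.13, adjusted p = 0.00435). The call was kept in all 15 alternative fits, with adjusted p from 2.24e-04 to 0.0204.

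Insig2 (chromosome 1, 121304353 to 121332662, minus strand) was at 12.9, 13.7, 12.9 and 15.5 CPM in new AML and at 10.1, 10.4, 7.90 and 11.3 CPM in aggressive AML. All 4 aggressive AML values lay below the lowest new AML value. The means were 13.8 ± 1.21 and 9.91 ± 1.43 CPM (SD, n = 4), 1.38-fold lower in aggressive AML, on the log2 scale -0.47 (SE 0.16, adjusted p = 0.0489). This p stood close to the threshold. Leaving out 1 library kept the call only for aggressive AML replicate 4 (adjusted p = 0.0443). Without new AML replicates 1, 2, 3 or 4 the adjusted p was 0.0737, 0.106, 0.0581 and 0.137, and without aggressive AML replicates 1, 2 or 3 it was 0.0881, 0.0816 and 0.0978.

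Srebf1 and Srebf2, which encode the SREBP factors, lay within the spread of the replicates. Srebf1 was at 149.5, 114.2, 137.5 and 104.7 CPM in new AML and at 129.6, 114.8, 146.4 and 115.5 CPM in aggressive AML, and its log2 fold change, -0.0001 with an SE of 0.11 (adjusted p = 1.00), changes sign with the scaling. Srebf2 was at 196.8, 164.2, 168.2 and 132.4 CPM in new AML and at 184.5, 176.0, 179.2 and 158.3 CPM in aggressive AML (log2 fold change 0.08, SE 0.10, adjusted p = 0.644). Both genes had their lowest value in new AML replicate 4. The exons of Srebf1 overlap those of Rai1 in the annotation, and reads may be shared between them. Scap was at 84.1 to 97.9 CPM in new AML and 89.3 to 104.6 CPM in aggressive AML (log2 fold change 0.08, SE 0.08, adjusted p = 0.539).

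The 7 enzymes of the mevalonate and isoprenoid steps, which turn acetyl-CoA into farnesyl diphosphate, did not pass the test in either direction with edgeR or DESeq2, and 0 of them had an unadjusted p under 0.05 with edgeR, although all 7 fold changes were above 0 (median 0.11, highest 0.30). Acat2 condenses acetyl-CoA and had a log2 fold change of 0.10 (adjusted p = 0.721). Hmgcs1, the synthase that commits these units to the route and whose window holds the SREBP letters shown above, was at 35.0, 39.2, 36.4 and 39.0 CPM in new AML and at 45.7, 42.6, 28.9 and 43.8 CPM in aggressive AML. Thus 3 aggressive AML libraries lay above and 1, replicate 3, lay below all new AML libraries (log2 fold change 0.11, SE 0.13, adjusted p = 0.603). The kinases Mvk and Pmvk and the decarboxylase Mvd, which act one after the other on mevalonate, had log2 fold changes of 0.11, 0.30 and 0.15 (adjusted p = 0.700, 0.178 and 0.491). Idi1, which isomerizes the isoprene unit, and Fdps, which joins units into farnesyl diphosphate, had log2 fold changes of 0.08 and 0.11 (adjusted p = 0.722 and 0.561). Fdps shares exonic sequence with the overlapping gene Gm43738.

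The 11 enzymes from squalene to cholesterol held both called sterol enzymes, with 2 higher and 0 lower (18.2%). Over all genes tested, 18.4% were called in either direction and 8.15% were higher. Of the fold changes of these enzymes, 10 of 11 were above 0, with a median of 0.31, against 0.0004 over all genes tested. The 2 called enzymes act at the ring closure and at the removal of methyl groups from the sterol ring. Hsd17b7 (chromosome 1, 169949535 to 169969242, minus strand), the ketoreductase of methyl group removal, was at 5.95, 8.20, 9.59 and 6.80 CPM in new AML and at 13.7, 14.4, 11.8 and 12.4 CPM in aggressive AML. The groups did not overlap, and the means of 7.64 ± 1.5999 and 13.1 ± 1.18 CPM (SD, n = 4) differed 1.71-fold (log2 fold change 0.78, SE 0.18, adjusted p = 0.00690). This was the highest fold change of the 40 genes and was called in all 15 alternative fits.

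Lss (chromosome 10, 76531565 to 76557139, plus strand), which folds the squalene chain into lanosterol, was at 16.6, 13.9, 16.7 and 11.3 CPM in new AML and at 22.6, 20.8, 21.3 and 16.8 CPM in aggressive AML. The lowest aggressive AML library barely exceeded the highest new AML library. The means were 14.6 ± 2.60 and 20.4 ± 2.49 CPM (SD, n = 4), a 1.39-fold difference (log2 fold change 0.48, SE 0.15, adjusted p = 0.0412). Its call was lost without new AML replicate 2 (adjusted p = 0.110), without new AML replicate 4 (0.123) and without aggressive AML replicates 1, 2 or 3 (0.110, 0.0850 and 0.0618). Exons of Lss overlap those of 4930483K19Rik in the annotation.

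Next to these enzymes in the route stood 3 genes of similar fold change that did not pass the test. Nsdhl, the decarboxylating dehydrogenase that acts before Hsd17b7, was at 15.3, 16.6, 17.4 and 11.8 CPM in new AML and at 23.1, 19.1, 24.4 and 17.4 CPM in aggressive AML (log2 fold change 0.46, SE 0.15, adjusted p = 0.0518). Its groups did not overlap, and it was called with DESeq2 (adjusted p = 0.0368), without the filter on low counts (0.0499), without new AML replicate 3 (0.0444) and without aggressive AML replicate 4 (0.0302). Msmo1, the methyl oxidase that acts before Nsdhl, was at 16.6, 17.8, 21.5 and 15.6 CPM in new AML and at 28.7, 28.5, 15.9 and 24.9 CPM in aggressive AML (log2 fold change 0.46, SE 0.17, adjusted p = 0.0782). Aggressive AML replicate 3 lay among the new AML libraries for Msmo1 and the other 3 lay above them, and without that library the adjusted p was 0.00434 (0.04998 without new AML replicate 3). Sqle, which oxygenates squalene, was at 28.7, 18.5, 28.1 and 13.5 CPM in new AML and at 32.0, 38.6, 21.4 and 25.6 CPM in aggressive AML (log2 fold change 0.40, SE 0.22, adjusted p = 0.220). Its spread within new AML was the widest of the sterol enzymes in that group, with a coefficient of variation of 33.6%.

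The remaining enzymes of this stretch were closer to 0. The lanosterol demethylase Cyp51 had a log2 fold change of 0.31 (adjusted p = 0.130), with new AML replicate 4 at 27.5 CPM below the other 7 libraries (37.9 to 50.7 CPM). Its exons overlap those of Akap9. The sterol desaturase Sc5d was at 23.1 to 24.6 CPM in new AML and at 24.0 to 31.8 CPM in aggressive AML (log2 fold change 0.23, adjusted p = 0.188). Fdft1, which makes squalene, and the reductases Tm7sf2 and Dhcr7 had log2 fold changes of 0.10, 0.02 and 0.10 (adjusted p = 0.695, 0.931 and 0.561). Ebp, the sterol isomerase, was the only sterol enzyme with a fold change below 0 (log2 fold change -0.04, adjusted p = 0.801). Fdft1 overlaps Ctsb and Tm7sf2 overlaps Vps51, so their counts are uncertain.

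**Figure D2:**
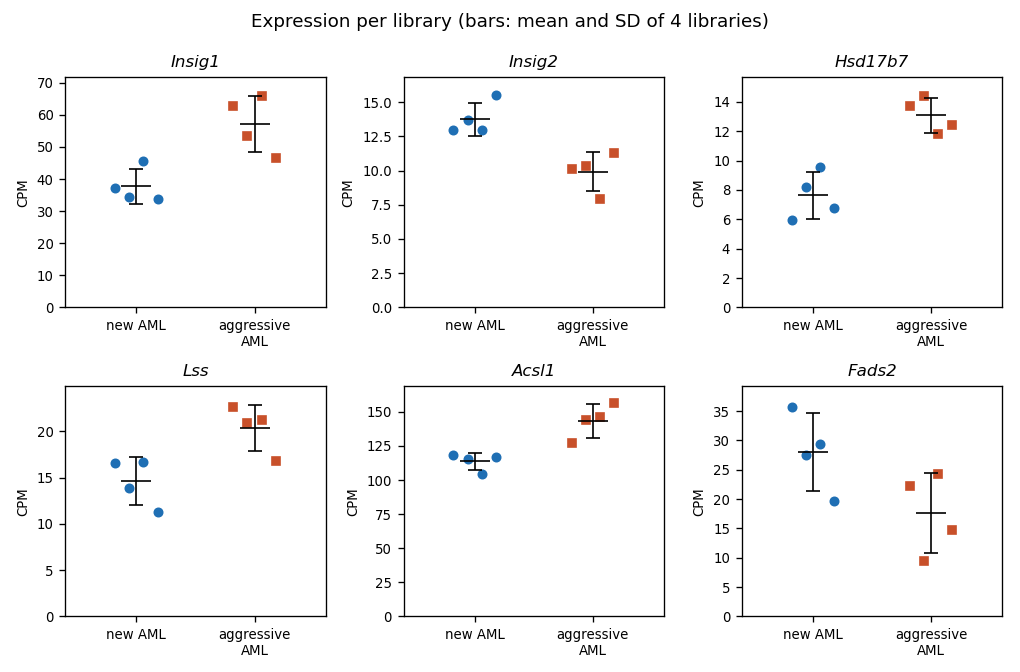
CPM (y axis, from 0) of the 5 genes that passed the test and of the desaturase Fads2, which did not, in the 4 new AML and the 4 aggressive AML libraries (points), with the mean and SD of each group. The groups do not overlap for the 5 genes that passed, and they overlap for Fads2 through new AML replicate 4.

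Of the 5 genes of sterol transport and the LXR receptors, 0 passed the test with edgeR, and 2 had an unadjusted p under 0.05. These were the LXR genes themselves. Nr1h2, the broadly expressed LXR, was at 126.9, 127.4, 135.9 and 128.8 CPM in new AML and at 163.0, 145.6, 143.7 and 145.5 CPM in aggressive AML (log2 fold change 0.20, SE 0.07, adjusted p = 0.0644). The groups did not overlap, and the gene was called with DESeq2 (adjusted p = 0.0345) and without aggressive AML replicate 3 (0.0497). Nr1h3, the LXR of macrophages and liver, was near the lower limit of the table, with 13, 10, 13 and 16 counts in new AML and 7, 5, 8 and 6 counts in aggressive AML. The groups did not overlap here either, but at this depth the fold change was imprecise (log2 fold change -0.87, SE 0.38, adjusted p = 0.121). The new AML libraries, at 1.19 to 1.78 CPM, met the filter of 1 CPM in 4 libraries by themselves. Aggressive AML was at 0.589 to 1.04 CPM, so the lack of overlap for Nr1h3 is not independent of the filter. The macrophage marker Adgre1 was lower in aggressive AML as well, the summed macrophage markers overlapped between the groups, and their part in the level of Nr1h3 was not tested.

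The LXR targets varied more between replicates than between groups. Abca1 had 8, 9, 13 and 12 counts in new AML and 7, 6, 21 and 12 counts in aggressive AML (log2 fold change 0.25, SE 0.45, adjusted p = 0.732). Abcg1 was at 6.06 to 9.26 CPM in new AML and at 4.22, 3.30, 10.4 and 7.17 CPM in aggressive AML (log2 fold change -0.34, SE 0.29, adjusted p = 0.447). In both exporters aggressive AML replicate 3 was the highest library of all, and the coefficients of variation within aggressive AML, 65.3% and 51.0%, were the widest of the 40 genes. Stard4, which carries cholesterol between membranes, was at 42.6 to 54.6 CPM in new AML and 39.5 to 55.4 CPM in aggressive AML (log2 fold change 0.09, adjusted p = 0.619).

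On the fatty acid side, chain synthesis did not differ between the groups beyond the replicate spread. Acaca, which makes malonyl-CoA, was at 38.8, 44.3, 39.3 and 29.5 CPM in new AML and 32.3, 29.9, 36.7 and 32.7 CPM in aggressive AML (log2 fold change -0.21, SE 0.12, adjusted p = 0.267). Fasn, the synthase that builds palmitate, was at 403.0, 326.7, 351.6 and 266.0 CPM in new AML and at 309.7, 371.6, 263.3 and 309.5 CPM in aggressive AML (log2 fold change -0.10, SE 0.12, adjusted p = 0.583). The groups overlapped in both genes.

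The 3 desaturases, which put double bonds into fatty acids, all had fold changes below 0 and did not pass the test. Fads2, which starts the route to polyunsaturated fatty acids (chromosome 19, 10062765 to 10101503, minus strand), was at 35.7, 27.6, 29.4 and 19.6 CPM in new AML and at 22.3, 9.42, 24.2 and 14.7 CPM in aggressive AML. New AML replicate 4 lay below 2 of the aggressive AML libraries. The means were 28.1 ± 6.64 and 17.7 ± 6.86 CPM (SD, n = 4) (log2 fold change -0.68, SE 0.24, adjusted p = 0.0609). The gene was called with DESeq2 (adjusted p = 0.0360), without new AML replicate 4 (0.0388) and without aggressive AML replicate 3 (0.0204). Fads1, which acts after Fads2, was at 35.1 to 58.8 CPM and 37.2 to 46.3 CPM (log2 fold change -0.17, adjusted p = 0.409). Scd2, which makes monounsaturated fatty acids, was at 276.3, 224.1, 299.7 and 167.4 CPM in new AML and at 224.9, 170.0, 267.2 and 189.9 CPM in aggressive AML (log2 fold change -0.18, SE 0.16, adjusted p = 0.453).

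The 3 elongases, which lengthen fatty acids beyond palmitate or extend unsaturated chains, also had fold changes below 0 and did not pass the test. Elovl6, the elongase of saturated and monounsaturated chains, was at 46.7 to 65.7 CPM in new AML and 42.8 to 49.0 CPM in aggressive AML (log2 fold change -0.29, SE 0.12, adjusted p = 0.0990, and 0.0476 without new AML replicate 4). Elovl1, which makes very long saturated chains and whose exons overlap those of Cdc20, had a log2 fold change of -0.10 (adjusted p = 0.436). Elovl5, which extends polyunsaturated chains, had one of -0.04 (adjusted p = 0.754).

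Of the acyl-CoA synthetases, which activate fatty acids for use in lipids or for oxidation, Acsl1 rose and the other 3 stayed within 0.06 of 0 on the log2 scale. Acsl1 (chromosome 8, 46471037 to 46536051, plus strand) was at 118.0, 115.7, 104.6 and 116.6 CPM in new AML and at 127.0, 143.7, 145.9 and 156.7 CPM in aggressive AML. The groups did not overlap, with means of 113.7 ± 6.15 and 143.3 ± 12.3 CPM (SD, n = 4), a 1.26-fold rise (log2 fold change 0.33, SE 0.08, adjusted p = 0.0105) that was called in all 15 alternative fits. Its span overlaps exons of Gm45244. Acsl3, Acsl4 and Acsl5 had log2 fold changes of 0.02, -0.05 and 0.00 (adjusted p = 0.916, 0.817 and 0.984). Acsl5, at 225.0 to 257.8 CPM in new AML and 231.6 to 256.3 CPM in aggressive AML, was the steadiest of these genes between the groups. Exons of Acsl3 overlap Utp14b and those of Acsl5 overlap Zdhhc6.

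Set side by side, the sterol enzymes leaned upward and the fatty acid genes downward, while few of either passed the test. Of the 18 sterol synthesis enzymes, 2 were called higher and 0 lower (11.1%), 17 had a fold change above 0, and the median was 0.13 (range -0.04 to 0.78). Of the 12 fatty acid genes, 1 was called higher and 0 lower (8.33%), 3 had a fold change above 0, and the median was -0.10 (range -0.68 to 0.33). Over all genes tested, 18.4% were called (8.15% higher and 10.2% lower), 50.1% had a fold change above 0 and the median was 0.0004. No test was made over these lists, since the genes were measured in the same libraries and are not replicates. Across all alternatives the sterol median stayed between 0.07 (aggressive AML replicate 1 left out) and 0.24 (aggressive AML replicate 3 left out). The number of sterol enzymes above 0 ranged from 13, without aggressive AML replicate 1, to 18. The fatty acid median ranged from -0.15, without new AML replicate 4, to -0.03, without new AML replicate 1, and 1 to 4 of the 12 genes stayed above 0, the 1 being without new AML replicate 2 or 4.

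**Figure D3:**
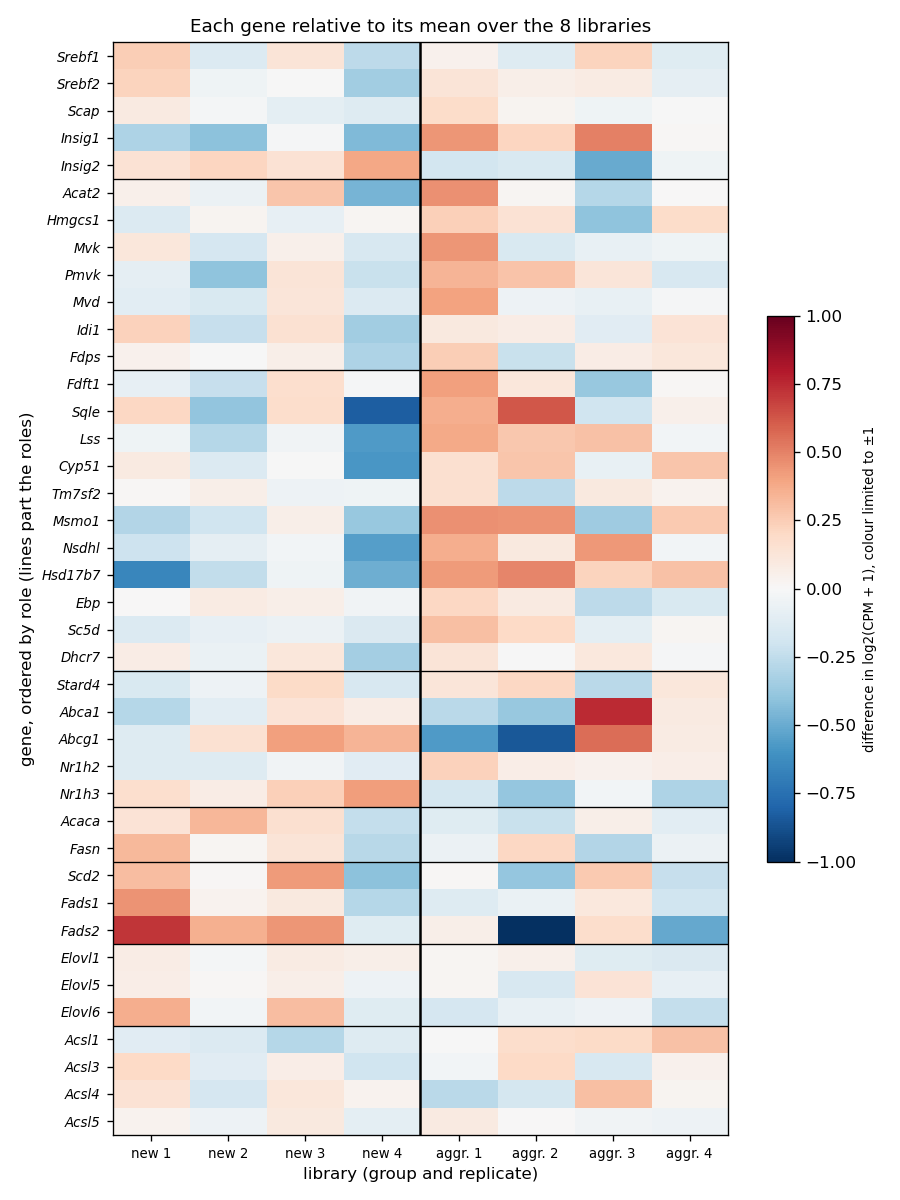
Difference of each gene (rows, ordered by role) from its mean over the 8 libraries (columns), on the log2(CPM + 1) scale, with red above and blue below the mean. New AML replicate 4 is blue through most sterol and fatty acid genes, and aggressive AML replicate 1 is red through most sterol genes.

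Single libraries stood out within their groups across many of these genes. New AML replicate 4 was the lowest library of its group in 11 of the 18 sterol enzymes and the highest in 0, whereas new AML replicate 3 was the highest in 11. In aggressive AML, replicate 1 was the highest in 13 of the 18 and replicate 3 the lowest in 11. For the 12 fatty acid genes, new AML replicate 1 was the highest of its group in 8, new AML replicate 4 the lowest in 9, and aggressive AML replicate 3 the highest in 7. Aggressive AML replicate 3 therefore stood low in sterol enzymes and high in fatty acid genes within its group, while new AML replicate 4 stood low in both.

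As a level per library, the mean log2(CPM + 1) of the 18 sterol enzymes was 4.36 to 4.73 in new AML and 4.61 to 4.98 in aggressive AML, with means of 4.55 ± 0.157 and 4.78 ± 0.154 (SD, n = 4). The same mean over the 12 fatty acid genes was 6.06 to 6.43 in new AML and 6.08 to 6.26 in aggressive AML, with means of 6.27 ± 0.164 and 6.15 ± 0.0787 (SD, n = 4). The groups overlapped in both levels. The difference between the sterol and the fatty acid level in the same library was -1.82, -1.71, -1.63 and -1.70 in the new AML libraries and -1.18, -1.28, -1.64 and -1.38 in the aggressive AML libraries. Aggressive AML replicates 1, 2 and 4 lay above all new AML libraries, and aggressive AML replicate 3 fell just below new AML replicate 3. In summed CPM, which the abundant genes govern, the sterol enzymes held 458.9 ± 46.4 CPM in new AML and 522.2 ± 55.7 CPM in aggressive AML, and the fatty acid genes 1335.3 ± 159.3 and 1273.8 ± 30.2 CPM (SD, n = 4).

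**Figure D4:**
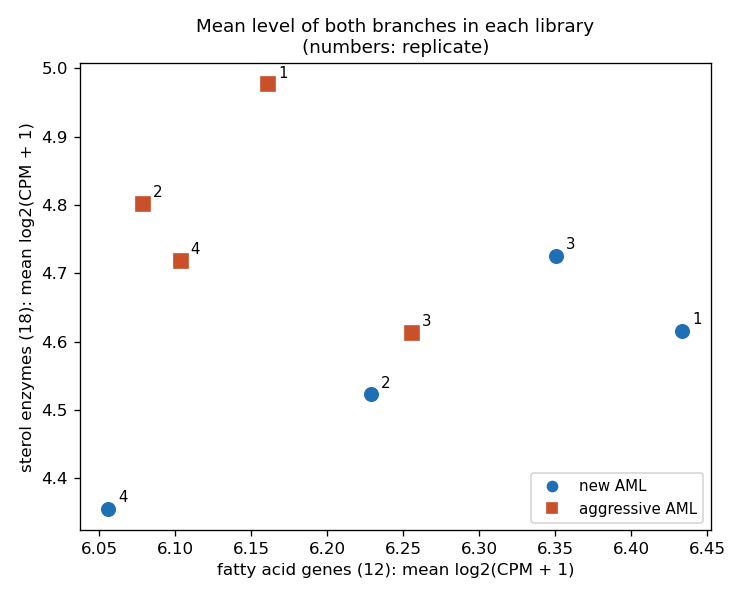
Mean log2(CPM + 1) of the 18 sterol enzymes (y axis) against that of the 12 fatty acid genes (x axis) in each library, numbered by replicate. Aggressive AML replicates 1, 2 and 4 lie at the upper left, and aggressive AML replicate 3 lies beside the new AML libraries.

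Levels of different genes were compared per transcript length, as TPM (counts per kilobase of the longest annotated transcript, scaled to the same total in each library). With that transcript, the most abundant in new AML were Nr1h2 at 162.3 ± 2.37 TPM, Acsl5 at 141.5 ± 5.56 TPM, Scd2 at 110.5 ± 24.6 TPM and Elovl1 at 109.1 ± 4.18 TPM (SD, n = 4). The median of the 40 genes was 23.8 TPM. Scd2 and Elovl1 overlapped in their new AML values, as did 31 of the 39 pairs of neighbours in this order. Both genes called in sterol synthesis stood near the bottom, with Lss at 5.22 ± 0.844 TPM in new AML and 6.94 ± 0.664 TPM in aggressive AML, and Hsd17b7 at 4.12 ± 0.744 and 6.76 ± 0.635 TPM. Only Abcg1 (3.395 TPM in new AML), Nr1h3 (1.82 TPM) and Abca1 (0.284 TPM) were lower. Insig1 was at 34.9 ± 3.92 and Insig2 at 12.8 ± 1.42 TPM in new AML, but with the median transcript length the order turned, at 23.3 and 28.4 TPM. Fasn, at 83.8 ± 13.9 TPM, lay well above Acaca, at 9.97 ± 1.54 TPM, in new AML. These levels, and the order at the top, depend on the transcript chosen. With the median transcript length the first 4 in new AML were Acsl5 (525.8 TPM), Fasn (413.3 TPM), Scap (214.7 TPM) and Nr1h2 (200.8 TPM), and Scd2 and Elovl1 fell to the 11th and 10th place.

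Other genes of the pathway, 52 in a list that covers SREBP processing, sterol handling, isoprenoid branches, substrate supply and the elongation cycle, were counted in the same fit. Of the 45 that were tested, 3 were higher and 13 lower in aggressive AML (35.6%, against 18.4% of all genes), and 18 had groups that did not overlap (21.8% of all genes). Over all genes tested, 8.15% were higher and 10.2% lower. These other genes were listed with earlier results of these data known, so their share is a description and not a test. In the list of sterol handling, esters and oxysterols, 6 of 17 were lower and 0 higher. In that of the elongation cycle, further desaturases and synthetases, 2 of 11 were higher and 4 lower. Most calls fell in these lists. The remaining calls, named after their values were seen, were Syvn1, Dhdds and Mlycd, which were lower, and Pdss1, which was higher.

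Cyp27a1, which makes an oxysterol ligand of LXR, fell most among the sterol handling genes, from 13.2, 17.95, 16.8 and 31.7 CPM in new AML to 5.90, 6.01, 5.83 and 5.69 CPM in aggressive AML. The aggressive AML libraries were nearly equal and lay below all new AML libraries, 3.39-fold lower on average (log2 fold change -1.76, SE 0.24, adjusted p = 1.18e-04). Npc1 and Npc2, which pass cholesterol out of the lysosome, were lower as well, Npc2 at 372.3 ± 17.2 against 294.5 ± 31.7 CPM (SD, n = 4, log2 fold change -0.34, adjusted p = 0.00996) and Npc1 at 44.1 ± 3.10 against 33.7 ± 2.83 CPM (SD, n = 4, log2 fold change -0.39, adjusted p = 0.0160, and 0.0540 without new AML replicate 2). Soat1, which makes cholesterol esters for storage, was at 102.7 ± 10.9 and 72.9 ± 9.997 CPM (SD, n = 4, log2 fold change -0.49, adjusted p = 0.00437). Stard3, a sterol transfer protein of late endosomes, was at 41.6 ± 2.48 and 29.8 ± 2.44 CPM (SD, n = 4, log2 fold change -0.48, adjusted p = 0.00396). The sum of the neutrophil markers was lower in aggressive AML in the same libraries. All 5 tested macrophage markers had fold changes below 0, with 1 called lower. The part of either cell type, or of a change of these markers within the leukemia cells, in these genes was not tested.

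Fads3, a desaturase of the same gene family as Fads1 and Fads2, was at 13.5, 11.1, 12.04 and 14.6 CPM in new AML and at 2.77, 3.89, 5.18 and 3.41 CPM in aggressive AML, 3.37-fold lower (log2 fold change -1.75, SE 0.21, adjusted p = 4.25e-05). The groups stood far apart, which was not the case for Fads1 or Fads2. Hacd4, a dehydratase of the elongation cycle, was lower at 4.73 ± 1.28 against 12.6 ± 3.39 CPM (SD, n = 4, log2 fold change -1.40, adjusted p = 8.99e-04). Oxsm, which extends fatty acids in mitochondria, was at 30.8 ± 2.16 and 22.3 ± 2.43 CPM (SD, n = 4, log2 fold change -0.46, adjusted p = 0.0113). In contrast Elovl4, the elongase of very long chains, was higher at 9.31 to 17.9 CPM against 6.06 to 7.70 CPM (log2 fold change 0.99, SE 0.21, adjusted p = 0.00437). Hsd17b12, the ketoreductase of the elongation cycle, was higher at 148.2 ± 6.55 against 117.5 ± 11.6 CPM (SD, n = 4, log2 fold change 0.33, adjusted p = 0.0107, and 0.0502 without new AML replicate 2). Of the 10 genes described one by one here, Npc1 and Hsd17b12 lost their call as given, and the others kept it in each alternative fit that tested them (14 fits for Fads3 and Hacd4, 15 for the rest). The whole list fell from 16 calls to 10 without new AML replicate 2.

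**Figure D5:**
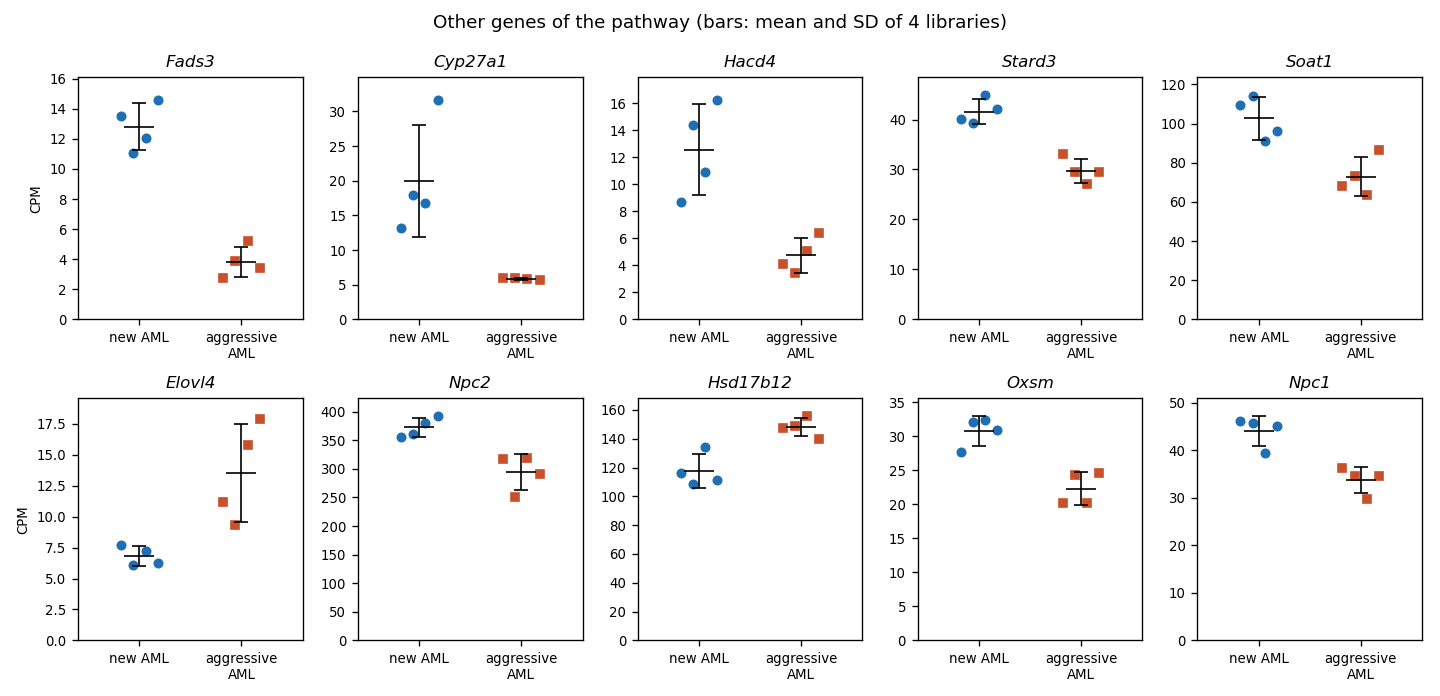
CPM (y axis, from 0) of the 10 other genes of the pathway with the smallest adjusted p, in the 4 new AML and 4 aggressive AML libraries (points), with the mean and SD of each group. Elovl4 and Hsd17b12 are higher in aggressive AML, and the other 8 genes are lower, with no overlap between the groups.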

How the data were processed

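Polyadenylated RNA of GFP-positive leukemia cells was sequenced from both ends, aligned by the authors with HISAT2 (build mm10), and counted per gene with Rsubread. Which annotation was counted, and whether by strand, is not given in the sources used here. The deposited values are raw read counts per gene, whole numbers whose totals differ between libraries, although the table is named for CPM. It had been filtered by the authors at 1 CPM, and 0 rows lacked a gene name. Columns of samples that were not used numbered 0.

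Groups and replicate numbers came from the sample labels. The members and the gene lists were chosen with earlier results of these data known. Every member is named, and of the other pathway genes the 10 with the smallest adjusted p under 0.05 are described, while 4 further called ones were named after their values were seen. Some genes of these routes are not reported here.

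The test covered genes that reached 1 CPM in 4 or more libraries (12494, with 329 left out) and was the two-sided quasi-likelihood test of edgeR 4.0.16 in R 4.3.3, with TMM scaling of library sizes (factors 0.986 to 1.01), no covariate, and Benjamini-Hochberg adjustment over all genes tested. An adjusted p under 0.05 is a call. CPM was computed from the library totals times these factors, and 1 count was worth 0.103 to 0.130 CPM. TPM used the longest transcript of each gene in GENCODE M21 (94.7% of rows matched), and branch levels are means of log2(CPM + 1). The biological coefficient of variation common to all genes was 0.118. Replicates differed beyond sampling noise in every pair (chi-square per degree of freedom of at least 4.04), so that none was counted as a library deposited again, which does not show that the samples were independent. The fits were tested on simulated data.

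Alternatives were the size factors of DESeq2, library totals without factors, the test of DESeq2 1.42.0, limma 3.58.1 on log2(CPM + 1), no filter, a mean of at least 10 CPM, the replicate number as a block, and leaving out each library in turn. Gene spans and promoter windows are those of RefSeq on GRCm38.p6, the same build as mm10. Exons of 16 of the 40 genes overlap another annotated gene, of which 8 overlap a protein-coding one, and such counts are uncertain.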

Additional observations from a re-analysis of the deposited data

Results flagged for a closer look

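In 4 of the 80 groups of 4 libraries examined (40 genes in each of both groups), 1 library stood apart from the other 3 by Dixon's criterion, and chance gives about 1 such group in 20. Aggressive AML replicate 1 was the library in 3 of the 4. Mvk was at 17.5 CPM in that library, against 11.2 to 12.2 CPM in the other aggressive AML libraries. Mvd was at 27.7 CPM there, against 19.6 to 20.5 CPM. Nr1h2 was at 163.0 CPM there, against 143.7 to 145.6 CPM. In new AML, Mvd was at 22.6 CPM in replicate 3, against 18.5 to 19.2 CPM in the other libraries. None of these 3 genes passed the test between the groups with edgeR, while Nr1h2 did with DESeq2.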

How the results depend on the processing

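The number of the 40 genes called was 5, and it was 5 or 6 under the other scalings, filters and limma. It was 8 with DESeq2 and ranged from 3 to 6 when 1 library was left out. For the sterol enzymes the count was 2 and ranged from 1 to 4 without 1 library. For the fatty acid genes the count was 1, with 2 under DESeq2, 2 under the replicate block and 1 to 3 without 1 library. For regulators and transporters it was 2, with 1 under the replicate block and 1 to 2 without 1 library, and for the other pathway genes it was 16, with 10 to 15 without 1 library. Fits without 1 library have fewer samples, and the cause of the DESeq2 counts was not tested. The median level per length was 23.8 TPM and became 30.3 TPM with the median transcript length, and the cause was not tested.

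The deviations of same-numbered libraries had correlations of both signs (0.0967, -0.0399, -0.0654 and 0.204), so no pairing by replicate number was seen. These correlations do not exclude a pairing of the samples. With the number as a block, 2367 genes of all were called against 2296, and 6 of the 40. Under this block Insig2 passed out of the calls (adjusted p = 0.0512), and Nsdhl and Fads2 entered them (0.0321 and 0.0178).

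Near 0 the sign depended on the setting. The log2 fold change of Srebf1 became 0.0058 with DESeq2 size factors, 0.0062 with DESeq2, 0.0084 with limma, 0.0039 without the filter, 0.0062 with a mean of at least 10 CPM and 0.0077 with the replicate block, and that of Acsl5 became -0.0047 with library totals alone. Without 1 library, fold changes turned sign over these ranges. They were -0.0817 to 0.0896 for Srebf1, -0.0171 to 0.17 for Srebf2, -0.0549 to 0.22 for Acat2, -0.055 to 0.18 for Mvk, -0.0143 to 0.19 for Idi1, -0.0381 to 0.23 for Fdft1 and -0.0319 to 0.11 for Tm7sf2. They were -0.13 to 0.0327 for Ebp, -0.25 to 0.48 for Abca1, -0.0953 to 0.0033 for Elovl5, -0.042 to 0.10 for Acsl3, -0.17 to 0.0297 for Acsl4 and -0.0282 to 0.0369 for Acsl5. None of these genes was called. Over single genes and alternatives, 685 values kept their direction and side of the threshold, 14 gained a call, 15 lost one and 31 changed sign.

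Nr1h3 and Abca1 rest on at most 21 counts per library, and even changes larger than their standard errors can be missed at this depth. The log2 fold change of Nr1h3, -0.87 with an SE of 0.38, was not called with edgeR (adjusted p = 0.121). With 4 libraries a group, standard errors of the 40 genes were 0.07 to 0.45 on the log2 scale, so that a p above the threshold does not show that a gene was equal in both groups.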
